A study of Mus musculus with 12 samples.

Results

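Nascent RNA of 9 genes that gate or arrest the cell cycle was followed over the day in mouse liver. They are Wee1, Cdkn1a, Ccnd1, Ccnd2, Ccng2, Ccne1, Gadd45a, Gadd45b and Gadd45g, taken by symbol, and all 9 were found among the 21490 gene symbols of the table. The study profiled transcription with Nascent-Seq, in which RNA still attached to chromatin is recovered from purified nuclei and sequenced. Livers came from male wild-type C57BL/6 mice of 3 to 6 months kept in 12 hr of light and 12 hr of darkness. They were collected at 6 zeitgeber times (ZT, hours after lights on), ZT0, ZT4, ZT8, ZT12, ZT16 and ZT20, with 2 replicates each and 12 libraries in all, and no time point served as a control. The study treats both series as independent, but neither its methods nor the labels say whether a library came from a single animal or a pool, so p-values measure only the spread between these libraries.

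Passage through the cell cycle is driven by cyclins that bind and activate cyclin-dependent kinases (CDKs). D-type cyclins act in G1, cyclin E acts at the start of S phase, the kinase WEE1 restrains entry into mitosis by phosphorylating CDK1, and the inhibitor p21, the product of Cdkn1a, blocks CDK activity. Most hepatocytes of an adult liver are quiescent, and in the regenerating liver the circadian clock is known to time mitosis, with Wee1 as a gene under clock control. The Gadd45 genes encode small proteins induced by DNA damage and other stresses that promote arrest and repair.

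The signal of a gene is its read coverage per base of exon, in the study's unit of reads per base pair (rpbp), brought to 1 common library size and rounded to 0.1 rpbp. Hepatocyte markers were far above all others: 5 markers (Alb, Apoa1, Ttr, Cps1 and Hnf4a) summed to 551.9 to 1494 rpbp per library. The sums were 18.1 to 41.2 rpbp for 6 Kupffer and immune cell markers, 8.5 to 20.7 for 4 endothelial markers, 8.1 to 12.9 for 5 stellate markers and 0.8 to 2.2 for 4 cholangiocyte markers. Some immune markers of ZT8 replicate 1 stood apart, in both directions. Emr1 read 17.3 rpbp against 3.1 to 5.1 in the other libraries, and Ptprc 6.7 rpbp against 1.9 to 4.5. Clec4f read 1.6 rpbp against 6.5 to 22.7, whereas Cd68, Csf1r and Cd3e lay within the range of the other libraries. The endothelial marker Pecam1 read 4.2 rpbp against 0.7 to 2.4, and Stab2 13.4 against 5.5 to 12.3, whereas Kdr and Lyve1 lay within the range. In ZT16 replicate 2, 53.9% of tested genes exceeded 6 rpbp, against 61.2% to 71.8% in the others, and Alb (160.3 rpbp) and Ttr (24.6 rpbp) were at their lowest of the 12. The most GC-rich genes lay below the least GC-rich by 1.20 on the log2 scale in ZT8 replicate 2, relative to their means over all libraries, the widest such gap of the 12. The libraries of ZT8 and ZT20 were sequenced in 2 lanes and the others in 1, so lanes and time points cannot be told apart. Changes in the number of cells of a type and in the RNA of each cell cannot be told apart in whole liver either.

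Most of the 9 genes gave a weak signal. Only Gadd45g exceeded 6 rpbp, the study's limit for a reliable signal, in any library, whereas 6284 of all symbols did. Wee1 and Gadd45a also exceeded 3 rpbp, and the other 6 genes never did. Gadd45g had the highest mean, 8.37 ± 12.9 rpbp (SD, n = 12), but a median of only 3.3 rpbp. It was followed by Gadd45a at 2.56 ± 1.78, Ccng2 at 1.7 ± 0.405, Wee1 at 1.41 ± 1.21 and Ccnd1 at 1.32 ± 0.546 rpbp. The remaining means were 0.742 ± 0.156 rpbp for Ccnd2, 0.708 ± 0.614 for Cdkn1a, 0.25 ± 0.224 for Ccne1 and 0.242 ± 0.231 for Gadd45b. Only between Ccnd1 and Ccnd2 did neighbours in this order differ by more than the SD of both. Among the 20756 symbols above 0 in at least 1 library, the mean of Gadd45g lay at the 86.7th percentile and that of Gadd45b at the 22.3rd.

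**Figure D1:**
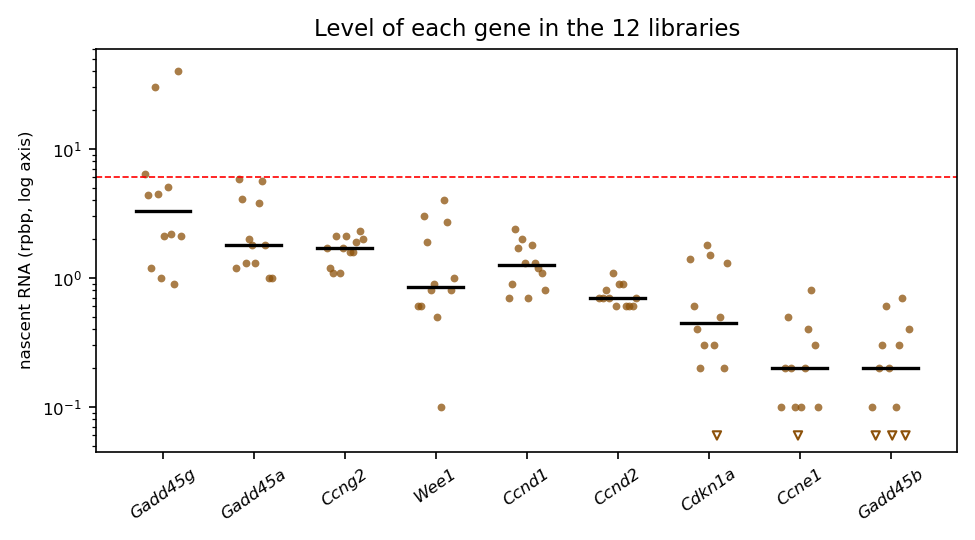
Nascent RNA signal (rpbp, log axis) of each gene, ordered by mean. Points are the 12 libraries, black bars are medians, open triangles are libraries listed at 0, and the red dashed line marks 6 rpbp. Only Gadd45g has libraries above the line, and Ccnd2 and Ccng2 have the narrowest spread.

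Reads of 80 nt translate these levels into about 123 reads per library for Gadd45g at the common library size, 116 for Ccng2, 34.2 for Wee1, 19.7 for Cdkn1a, 8.32 for Ccne1 and 3.82 for Gadd45b. The exons of Gadd45b (1266 bases) and Gadd45g (1173 bases) are the shortest of the 9, so that 0.1 rpbp of Gadd45b stands for about 1.58 reads. A single library of Ccne1 or Gadd45b thus rests on a handful of reads.

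Rhythms were sought with F24, the fraction of a gene's variance across libraries that a 24-hr Fourier component takes up. A set of criteria made a gene rhythmic: F24 above 0.45, a one-sided permutation p below 0.05, and a maximum that exceeded the minimum by more than 1.5 times. With F24 above 0.6 and a ratio above 7/4 the rhythm was strong. Above 6 rpbp, 955 of 6284 genes (15.2%) were rhythmic, and Gadd45g was not. Without a filter on low values, 2216 of 20756 symbols (10.7%) and 4 of the 9 genes met the criteria: Cdkn1a and Gadd45a with a strong rhythm, and Wee1 and Ccne1. The median F24 of the 9 genes was 0.419, against 0.192 for all symbols above 0. None of the p-values of these 4 calls passed Benjamini-Hochberg adjustment over the 20756 symbols, so the 4 calls are unadjusted. Of all these symbols, 0 passed adjustment, against 2355 (11.3%) at an unadjusted permutation p under 0.05. The 9 genes were chosen with earlier results of these data known. Neither their count of calls nor their median F24 against all symbols is therefore support for rhythms in the set.

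**Figure D2:**
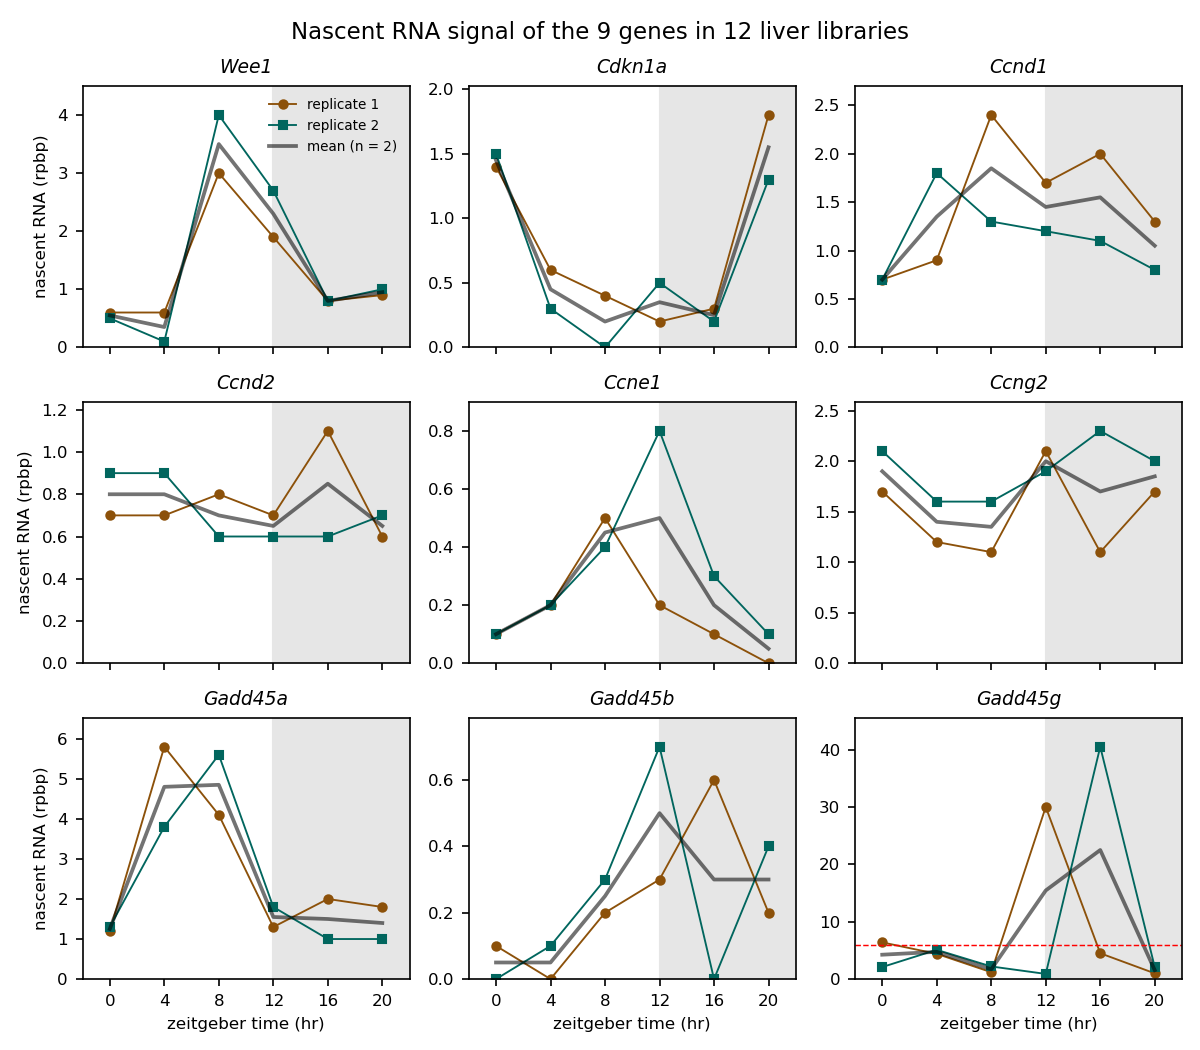
Nascent RNA signal (rpbp, linear axis from 0) of the 9 genes over zeitgeber time. Brown circles are replicate 1, green squares replicate 2, grey lines the mean of 2 replicates, shading the dark phase, and the red dashed line in the Gadd45g panel marks 6 rpbp. Replicates lie close together for Wee1 and Cdkn1a, whereas Gadd45g peaks in a different library of each replicate.

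Wee1 (chr7:117265573-117286813, mm9, + strand) peaked in the second part of the light phase. It measured 3.0 and 4.0 rpbp at ZT8 and 1.9 and 2.7 rpbp at ZT12. The other libraries read 0.6 and 0.5 rpbp at ZT0, 0.6 and 0.1 at ZT4, 0.8 and 0.8 at ZT16, and 0.9 and 1.0 at ZT20. The 4 libraries of ZT8 and ZT12 therefore lay above the other 8, which reached at most 1.0 rpbp, and both libraries of ZT8 lay above all others, which 1 time point did for 12.9% of all symbols above 0. All 4 libraries of 2 neighbouring time points lay above the rest for 2.94% of all symbols above 0, and for 3 of the 9 genes (Wee1, Cdkn1a and Gadd45a), a pattern chosen after the values were seen. F24 was 0.572 with a phase of 10.1 hr (p = 0.0199, permutation test, adjusted p = 0.338). The phase was 9.74 hr in the first series of 6 libraries and 10.3 hr in the second. The symbol AK005418, whose listed span holds Wee1, had a mean of 0.0917 rpbp.

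Wee1 was also the only one of the 9 to differ between the 6 time points in limma's moderated F-test on log2(rpbp + 1) without a filter (adjusted p = 0.0436), where 0.641% of symbols passed. The call was close to the threshold and was lost under several settings. The limma adjusted p was 0.0863 on log2(rpbp + 0.1), 0.0663 with the replicate number as a block, and 0.204 within the 4 time points sequenced in 1 lane, which leave out ZT8 and ZT20. Leaving out 1 library at a time gave 0.0427 (without ZT4 replicate 1) to 0.108, and over 0.05 in the other 11 cases, and with the GC trend of each library removed it was 0.034. On the log2(rpbp + 1) scale, Wee1 at ZT12 stood 1.08 ± 0.20 above ZT0 (SE, limma adjusted p = 0.0552, 0.915% of symbols passed). Wee1 at ZT20 stood at -1.20 ± 0.20 from ZT8 (limma adjusted p = 0.0843, 0.217% of symbols passed).

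Cdkn1a (chr17:29230720-29237667, + strand) had the opposite timing. The gene was highest around lights on, at 1.8 and 1.3 rpbp at ZT20 and 1.4 and 1.5 rpbp at ZT0. It measured 0.6 and 0.3 rpbp at ZT4, 0.4 rpbp and a listed 0 at ZT8, 0.2 and 0.5 at ZT12, and 0.3 and 0.2 at ZT16. The 4 high libraries, at 1.3 to 1.8 rpbp, did not overlap the other 8, at 0 to 0.6 rpbp. Its F24 of 0.724 was the highest of the 9 genes (phase 22.1 hr, p = 0.00506, permutation test, adjusted p = 0.232), with phases of 22.3 and 21.9 hr in the 2 series. The limma F-test adjusted p was 0.0721 without a filter. With the GC trend removed it was 0.0477, the only alternative setting under 0.05. The limma adjusted p was 0.205 on log2(rpbp + 0.1), 0.0774 with the replicate block, and 0.067 to 0.173 with 1 library left out. On the log2(rpbp + 1) scale Cdkn1a differed by -0.87 ± 0.20 between ZT12 and ZT0 (limma adjusted p = 0.105) and by 1.10 ± 0.20 between ZT20 and ZT8 (limma adjusted p = 0.104). The symbol Kifc1, whose listed span holds Cdkn1a, had a mean of 0.0917 rpbp.

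Of the 4 cyclin genes among the 9, Ccne1 met the rhythm criteria and Ccnd1, Ccnd2 and Ccng2 did not. Ccne1 (chr7:38883003-38892509, - strand), which encodes cyclin E1, gave 0.5 and 0.4 rpbp at ZT8 and 0.2 and 0.8 rpbp at ZT12. It read 0.1 and 0.1 rpbp at ZT0, 0.2 and 0.2 at ZT4, 0.1 and 0.3 at ZT16, and a listed 0 and 0.1 at ZT20. The highest libraries were those of ZT8 in the first series and ZT12 in the second, and the libraries of the 2 time points overlapped those of ZT4 and ZT16. F24 was 0.582 with a phase of 10 hr (p = 0.00788, permutation test, adjusted p = 0.264). Each series met the criteria alone, with an exact p of 0.0333 in both and phases of 8.0 and 11.3 hr, where 6 values allow no p below 0.0167. The share of all symbols that met them in each series alone is not given here. The limma F-test adjusted p was 0.389. No library of Ccne1 exceeded 0.8 rpbp.

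Neither Ccnd1 nor Ccnd2 passed a test. Ccnd1 (chr7:152115836-152125830, - strand), cyclin D1, was lowest at ZT0, with 0.7 rpbp in both libraries. Replicate 1 then read 0.9, 2.4, 1.7, 2.0 and 1.3 rpbp from ZT4 to ZT20, and replicate 2 read 1.8, 1.3, 1.2, 1.1 and 0.8. The 2 series differed in the time of their highest value, ZT8 and ZT4, and F24 was 0.372 (p = 0.126, permutation test). Ccnd2 (chr6:127075727-127101066, - strand), cyclin D2, varied least of the 9, from 0.6 to 1.1 rpbp with a median of 0.7. Its F24 was 0.0248 (p = 0.91, permutation test), and its phases in the 2 series lay 11.3 hr apart. The 3 symbols AK187594, AK043994 and AK020388 overlap Ccnd2, and reads were counted without regard to strand. AK187594 had a mean of 1.62 rpbp, above that of Ccnd2, and ranged from 0 to 5.7 rpbp. Its Pearson r with Ccnd2 on log2(rpbp + 1) was 0.517. The means of AK043994 and AK020388 were 0.0333 and 0.167 rpbp. Whether these symbols share reads with Ccnd2 was not checked.

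Ccng2 (chr5:93696283-93705250, + strand) encodes cyclin G2, an unusual cyclin linked to cell cycle arrest. Its libraries ranged from 1.1 to 2.3 rpbp with a median of 1.7, and each replicate 1 library except that of ZT12 read lower than replicate 2 of the same time point. F24 was 0.178 (p = 0.406, permutation test). The series disagreed in strength, with F24 of 0.0747 in the first and 0.781 in the second (exact p = 0.967 and 0.133), at phases of 17.6 and 18.2 hr. Without ZT16 replicate 1, which read 1.1 rpbp against 2.3 in replicate 2, F24 was 0.555 (p = 0.044, permutation test). Leaving out any other single library gave F24 of 0.0999 to 0.221 (p = 0.356 to 0.644, permutation test).

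The 3 Gadd45 genes differed in level, timing and agreement between replicates. The bases before the start site of each are shown so that the family can be compared at its promoters, as RefSeq gives them and 5′ to 3′ on the strand of the gene. The 300-base window that holds each stretch of 250 bases matched its own chromosome of NCBIM37 (mm9) once, in the gene's orientation. The 250 bases lie at chr6:66987402-66987651 (- strand) for Gadd45a, chr10:80392586-80392835 (+ strand) for Gadd45b and chr13:51941794-51942043 (+ strand) for Gadd45g. Capitals mark the E-box CACGTG, the sequence that the clock factors CLOCK and BMAL1 bind.
Gadd45a: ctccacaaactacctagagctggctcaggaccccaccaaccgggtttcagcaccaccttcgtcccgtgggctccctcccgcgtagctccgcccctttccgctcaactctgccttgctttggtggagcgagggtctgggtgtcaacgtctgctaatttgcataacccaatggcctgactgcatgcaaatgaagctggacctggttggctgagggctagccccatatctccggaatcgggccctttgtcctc
Gadd45b: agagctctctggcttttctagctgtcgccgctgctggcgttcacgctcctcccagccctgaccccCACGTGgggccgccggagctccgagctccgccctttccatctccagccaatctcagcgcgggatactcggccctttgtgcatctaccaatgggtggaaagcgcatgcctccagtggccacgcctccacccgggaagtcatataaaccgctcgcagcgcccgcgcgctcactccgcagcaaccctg
Gadd45g: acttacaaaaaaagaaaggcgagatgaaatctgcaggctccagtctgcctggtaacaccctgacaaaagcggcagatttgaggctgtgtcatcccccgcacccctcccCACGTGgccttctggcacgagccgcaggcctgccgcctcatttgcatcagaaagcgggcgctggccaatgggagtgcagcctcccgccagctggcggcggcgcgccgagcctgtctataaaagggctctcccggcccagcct

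An E-box began 185 bases before the start site of Gadd45b and 142 bases before that of Gadd45g, and none was found for Gadd45a. Windows of 300 bases, from 250 before to 50 after the start, were searched on both strands. CACGTG was present in 7.15% of the 32851 windows of the table, the D-box (TTATGTAA or TTACGTAA) in 1.06% and the nuclear receptor motif AGGTCA in 16.3%. Neither the D-box nor AGGTCA was found in the 7 windows of the 6 genes that matched (Ccng2, Gadd45a, Ccne1, Gadd45b, Gadd45g and Cdkn1a, the last with 2 windows), and no E-box in those of Ccng2, Ccne1 and Cdkn1a. Wee1, Ccnd1 and Ccnd2 had no entry. A match describes the sequence and does not show binding.

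Gadd45a (chr6:66985090-66987401, - strand) was high in the middle of the light phase. Its libraries read 5.8 and 3.8 rpbp at ZT4 and 4.1 and 5.6 rpbp at ZT8. They read 1.2 and 1.3 rpbp at ZT0, 1.3 and 1.8 at ZT12, 2.0 and 1.0 at ZT16, and 1.8 and 1.0 at ZT20. The 4 libraries of ZT4 and ZT8 lay above the other 8, which reached at most 2.0 rpbp. F24 was 0.653 (phase 6.24 hr, p = 0.00853, permutation test, adjusted p = 0.264), and the phases of the 2 series were 5.53 and 6.82 hr. The limma F-test adjusted p was 0.0762 without a filter. On the log2(rpbp + 1) scale Gadd45a at ZT16 stood at -1.22 ± 0.27 from ZT4 and at ZT20 at -1.29 ± 0.27 from ZT8, with limma adjusted p of 0.12 and 0.141 (0.116% and 0.217% of symbols passed).

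The 5′ part of the signal of Gadd45a may not be separable from its neighbours. The listed spans of AK054076 and AK029473 (both chr6:66986593-67030646) overlap that of Gadd45a, and the coverage ignores strand. Whether their exons overlap was not checked. AK054076 had a mean of 3.71 rpbp with F24 of 0.658 and a phase of 5.27 hr, and AK029473 a mean of 3.10 rpbp with F24 of 0.612 and a phase of 5.56 hr. Over the 12 libraries their Pearson r with Gadd45a on log2(rpbp + 1) was 0.801 and 0.778, from values that may share reads with Gadd45a.

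Gadd45b (chr10:80392836-80394949, + strand) was the weakest of the 9 and was listed at 0 in 3 libraries. Replicate 1 read 0.1, 0, 0.2, 0.3, 0.6 and 0.2 rpbp from ZT0 to ZT20, and replicate 2 read 0, 0.1, 0.3, 0.7, 0 and 0.4. The 2 replicates of ZT16, at 0.6 and 0 rpbp, held nearly the whole range of the gene. F24 was 0.419 with a phase of 13.7 hr (p = 0.0893, permutation test). Without ZT16 replicate 2 it was 0.771 (p = 0.00223, permutation test), so that 1 library decided the call.

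Gadd45g (chr13:51942064-51943843, + strand) was dominated by 2 libraries. ZT12 replicate 1 read 30.0 rpbp and ZT16 replicate 2 read 40.5 rpbp, whereas the other replicates of the same time points read 0.9 and 4.5 rpbp. The other libraries read 6.4 and 2.1 rpbp at ZT0, 4.4 and 5.1 at ZT4, 1.2 and 2.2 at ZT8, and 1.0 and 2.1 at ZT20. The 2 high libraries thus belong to different time points and different series, and the other 10 had a median of 2.15 rpbp. A gap between replicates as wide as that of Gadd45g was found for 4 of 6284 tested genes (0.0637%) at ZT12 and for 19 (0.302%) at ZT16, Gadd45g included. Its SD within time points, 1.501 on the log2(rpbp + 1) scale, was the 7th largest of the tested genes, whose median was 0.25.

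No daily rhythm of Gadd45g was detectable against this spread. F24 was 0.233 (p = 0.425, permutation test, adjusted p = 0.717), and the limma F-test gave an adjusted p of 0.451, where 7.65% of tested genes passed. Its differences 12 hr apart were 0.68, 1.40 and -0.09 on the log2(rpbp + 1) scale, each with an SE of 1.16 and limma adjusted p of 0.808, 0.531 and 0.995 (4.44%, 2.10% and 1.58% of tested genes passed). Without the 2 high libraries F24 was 0.235 (p = 0.378, permutation test). Without ZT16 replicate 2 alone, the library with the lowest Alb and Ttr and the fewest tested genes above 6 rpbp, F24 of Gadd45g was 0.131 (p = 0.858, permutation test). The part of that library's state in the Gadd45g value was not tested. The hepatocyte marker sum was 1130 rpbp in ZT12 replicate 1 and 651.5 in ZT16 replicate 2, against a median of 1059. The Kupffer and immune cell sum was 38.4 and 32.4, against a median of 30.15, and the part of these markers in the result was not tested.

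**Figure D3:**
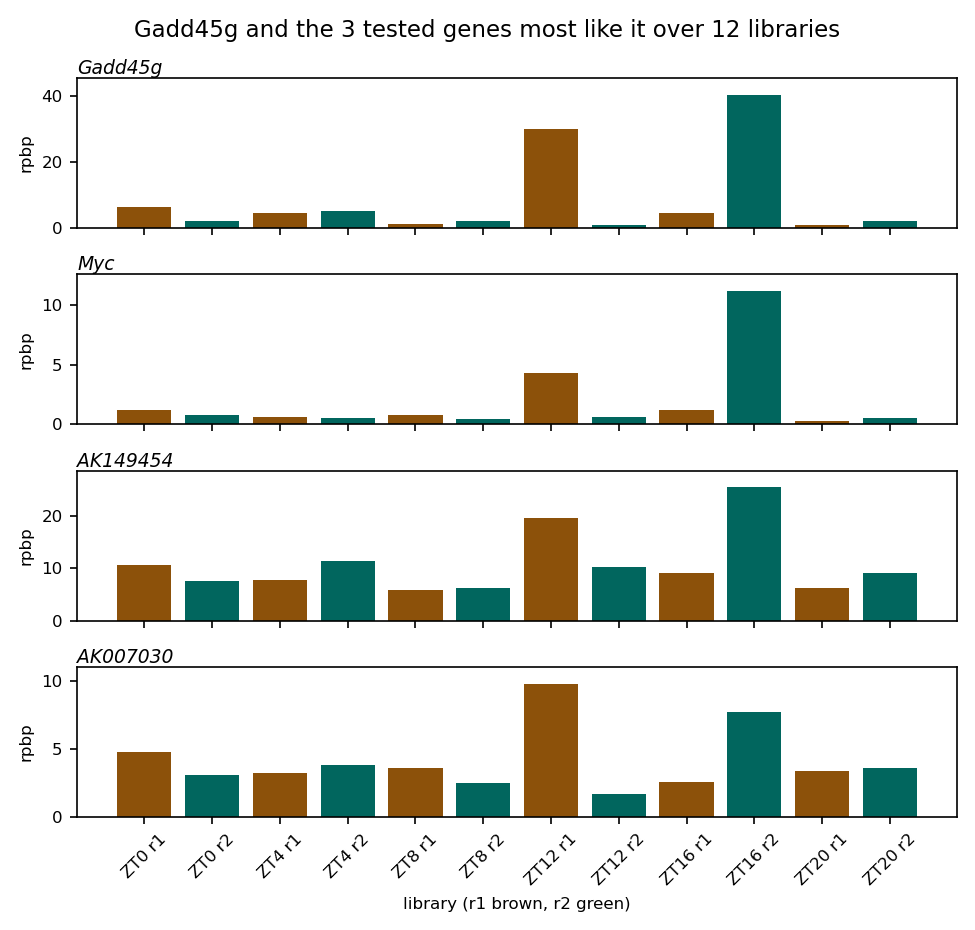
Nascent RNA signal (rpbp, bars from 0) of Gadd45g and of the 3 tested genes with the highest Pearson r with it, in the 12 libraries ordered by time point. Brown bars are replicate 1 and green bars replicate 2. All 4 genes have their 2 highest values in ZT12 replicate 1 and ZT16 replicate 2.

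Myc, which encodes a transcription factor that promotes growth and division, was the tested gene most like Gadd45g, with r = 0.904 over the 12 libraries on log2(rpbp + 1). It read 4.3 rpbp in ZT12 replicate 1 and 11.2 in ZT16 replicate 2, against 0.3 to 1.2 in the others. The clone-named symbols AK149454 and AK007030 followed at r = 0.903 and 0.871. In all 3 the 2 highest libraries were those of Gadd45g, and these genes were chosen after the values were seen.

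The 4 genes called without a filter were each given the 3 tested genes with the most similar profile, on the same scale over the 12 libraries. They were Ces3 (r = 0.904), Rev1 (0.897) and Txnip (0.873) for Wee1. Ces3, a carboxylesterase gene, read 123.1 and 196.7 rpbp at ZT8, where Wee1 was highest, and 8.2 to 98.1 rpbp elsewhere. Those for Cdkn1a were mKIAA0297 (0.92), mKIAA0899 (0.915) and AK015099 (0.889). Serpina6, which encodes the carrier of glucocorticoids in blood, was the most similar to Gadd45a (0.893), followed by Spry4 (0.885) and Inoc1 (0.858). Serpina6 read 13.8 to 36.5 rpbp at ZT4 and ZT8 and 3.3 to 9.1 rpbp elsewhere. For Ccne1 they were AK021368 (0.893), Fbxo22 (0.872) and Lrp4 (0.856). All were picked for the highest r among the tested genes. Genes that were not called also had close matches, with a highest r of 0.864 for Ccnd1 and 0.791 for Ccnd2.

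**Figure D4:**
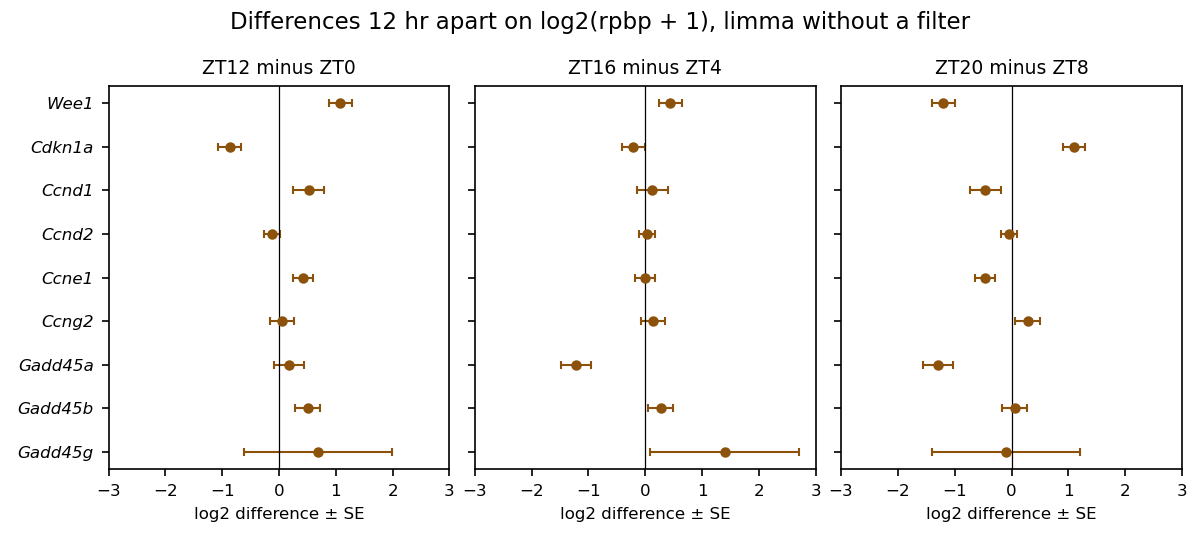
Differences between time points 12 hr apart for the 9 genes, as limma estimates on log2(rpbp + 1) without a filter, with bars of 1 SE. Wee1 and Cdkn1a lie on opposite sides of 0 for ZT12 minus ZT0 and for ZT20 minus ZT8, Gadd45a lies below 0 for ZT16 minus ZT4 and ZT20 minus ZT8, and Gadd45g has the widest bars.

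Set beside clock genes, the phases of the 4 genes lay at 3 times of day. The phase of Wee1 at 10.1 hr and that of Ccne1 at 10 hr lay beside Tef at 10.1 hr and Per3 at 10.8 hr, and after Dbp at 8.38 hr and Nr1d2 at 8.54 hr. These are genes of the clock or driven by it. Gadd45a at 6.24 hr lay beside Nr1d1 at 6.22 hr, which encodes the clock repressor REV-ERBα. Cdkn1a at 22.1 hr lay beside Arntl at 22.5 hr, which encodes BMAL1, a repression target of REV-ERBα. The nearest of the 4 to Per1 (12.8 hr) or Per2 (14.3 hr) was Wee1, 2.79 hr before Per1. F24 of the 8 clock genes ranged from 0.627 to 0.884, above those of Wee1 and Ccne1. Phases rest on 6 time points a day, and the 2 series gave Ccne1 phases of 8.0 and 11.3 hr. Matches closer than the spacing of the time points are therefore approximate.

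**Figure D5:**
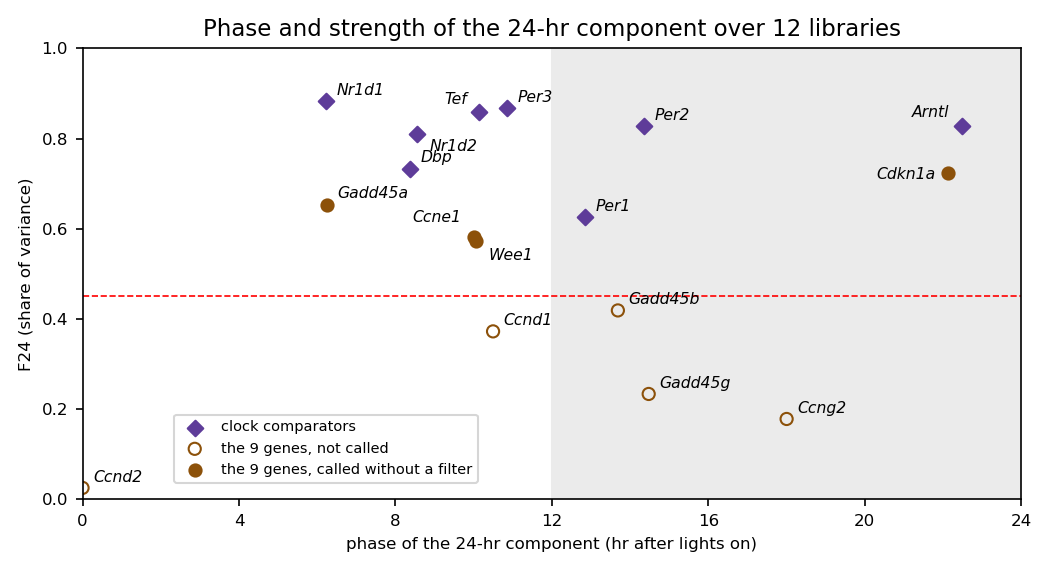
F24 (share of variance in the 24-hr component) against phase in hours after lights on, over 12 libraries. Purple diamonds are clock genes, filled circles the 4 genes called rhythmic without a filter, open circles the other 5, the red dashed line marks F24 of 0.45 and shading the dark phase. Ccnd2, at a phase of 0 hr, has the lowest F24.

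Other genes of the cell cycle were taken from a list of 76 by role (cyclins, CDKs, CDK inhibitors, Cdc25 phosphatases and inhibitory kinases, p53 and DNA damage checkpoint, antiproliferative genes, retinoblastoma and E2F, S phase and mitosis), of which 75 were in the table and 14 exceeded 6 rpbp. Of these 14, 1 was rhythmic, against 15.2% of all tested genes, and 0 passed the limma F-test, against 7.65%. At an unadjusted limma p under 0.05 there were 6 of the 14, against 27.6%. The rhythmic gene was Mdm4, a p53 inhibitor, with a mean of 16.1 ± 2.43 rpbp (SD, n = 12), F24 of 0.567 and a phase of 6.52 hr. The median F24 of the 14 genes was 0.217, against 0.222 for all tested genes. Without a filter, 9 of the 74 genes above 0 were rhythmic, against 10.7% of all symbols. In the limma F-test 0 of the 74 passed, against 0.641%, and 16 had an unadjusted p under 0.05, against 18.7%. The rhythmic count is near the share over all symbols and is no result about these genes.

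By role, 0 of the 5 CDK inhibitors in the table were rhythmic without a filter, with means from 0.092 to 3.3 rpbp, highest for Cdkn1b (p27). Nor was any of the 5 genes of inhibitory kinases and Cdc25 phosphatases, which include the Wee1 relatives Pkmyt1 and Wee2 and had means from 0.025 to 0.6 rpbp. The rhythmic genes without a filter, where 10.7% of all symbols were called, were Ccnd3 of the cyclins, Cdk2 of the CDKs, Mdm4 and Sesn1 of the p53 list, Gas1 of the antiproliferative genes, and Mcm5, Mcm6, Bub1 and Birc5 of the 17 S phase and mitosis genes. Ccnd3, cyclin D3, had F24 of 0.472 and a phase of 12.4 hr, and Cdk2 had F24 of 0.633 and a phase of 8.55 hr. The antiproliferative genes had the highest levels, with 4 of 8 above 6 rpbp, and Tob1 had the highest mean of the 76, 25.8 ± 5.87 rpbp, with F24 of 0.0367. None of the 17 S phase and mitosis genes exceeded 6 rpbp. Mki67 read 2.4 rpbp in ZT8 replicate 1, where some immune markers stood apart, against 0.3 to 1.1 in the other libraries. Pcna, Mcm7 and Birc5 were highest in other libraries. The part of that library's state in these values was not tested.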

How the data were processed

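Nascent-Seq libraries of mouse liver were made from chromatin-bound nuclear RNA after removal of polyadenylated RNA, with 2 libraries at each of 6 time points. Per the labels and the study's methods, the authors called bases with CASAVA 1.7, mapped reads to mm9 with TopHat and kept unique hits. The deposited signal is the coverage over the merged exons of a symbol divided by exon length, without regard to strand, scaled to the same number of reads per library. Depth per library is therefore not visible in the values, though the study lists it. Approximate reads at the common size were computed as signal times GENCODE M1 exon length over the read length of 80 nt. F24, phase and p columns of the authors were not used, and no count model was fitted. The table held 27919 blank lines, which were dropped.

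F24 was computed on linear values with 100000 permutations, and all 720 orders were enumerated for a series of 6 values. Differences between time points were tested with limma 3.58.1 on log2(rpbp + 1), with Benjamini-Hochberg adjustment over all tested symbols. The main tests took the symbols that exceeded 6 rpbp in any library. Since 8 of the 9 genes stayed at or below this, their values come from the alternative without a filter, and fold changes on this scale understate those of weak genes. The 9 genes, the lists and the tests were chosen with earlier results of these data known. Named were all 9 genes, the 3 tested genes most correlated with each gene called, listed pathway genes, clock genes and markers. Correlations among Gadd45 genes and D-type cyclins were not run, since fewer than 2 passed the filter. Exon GC content was known for 96.9% of tested symbols. Scripts were tested on simulated data (Python 3.11.15, R 4.3.3).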

Additional observations from a re-analysis of the deposited data

How the results depend on the processing

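The filter on low values set which genes could be called. Above 6 rpbp, 0 of the 9 genes were rhythmic and 0 differed between time points, since only Gadd45g was tested. Above 3 rpbp, 2 were rhythmic (Wee1 and Gadd45a), 2 passed the limma F-test (the same genes) and 2 differences 12 hr apart passed (both of Wee1). Of all 10382 symbols above 3 rpbp, 13.6% were rhythmic and 4.36% passed the F-test. For the 2 differences of Wee1, 2.97% passed between ZT12 and ZT0 and 0.915% between ZT20 and ZT8. Wee1 exceeded 3 rpbp only at ZT8 and Gadd45a only at ZT4 and ZT8, so both entered that set through the time points where they were high, and these calls are no support. With no filter, 4 were rhythmic, 1 passed the F-test and 0 differences 12 hr apart passed.

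All other settings without a filter were added after seeing the data. Apart from the filters and the adjusted p, the shares of all symbols called under these settings are not given here. The counts therefore show only how the calls depend on the setting, and are no result about the genes. Without a filter, the 4 rhythmic calls became 0 with adjusted p, 2 in series 1 alone (Ccne1 and Gadd45b, the latter not one of the 4) and 2 in series 2 alone (Ccne1 and Gadd45a), where 6 values limit the p, and leaving out 1 library gave 4 to 5. Wee1 was not called on log2(rpbp + 0.1) (p = 0.0535, permutation test). The 1 limma F-test call, Wee1, became 0 with log2(rpbp + 0.1), 0 within the 4 time points of 1 lane, 0 without ZT12 replicate 1 and ZT16 replicate 2 (an alternative chosen after seeing the data), 2 with the GC trend removed (Wee1 and Cdkn1a), and 0 to 1 when 1 library was left out. Of the listed cell cycle genes, 1 rhythmic call became 2 on log2(rpbp + 1), 2 on log2(rpbp + 0.1), 0 with adjusted p, 2 in series 2 alone, 4 above 3 rpbp, 9 with no filter and 0 to 3 when 1 library was left out, when their limma F-test calls ranged from 0 to 1.

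Correlations of deviations between the libraries of replicate 1 ran from -0.117 to 0.32, with a median of 0.0734 and 5 of 15 pairs above 0.1. Whether the libraries of a series share deviations was not tested further. With the replicate block the F-test calls without a filter went from 1 to 0 (Wee1, limma adjusted p = 0.0663) and the rhythmic calls stayed at 4.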

Other observations

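The 2 libraries in which Gadd45g was high shared other genes, chosen after their values were seen. Of 6284 tested genes, 8 were more than 2-fold above every other library in both ZT12 replicate 1 and ZT16 replicate 2: Serpina3n, Serpina3m, Serpina3k, 4833401D15Rik, Foxq1, Myc, Mcm10 and Gadd45g. Serpina3n, an acute-phase serpin gene, read 24.9 and 26.0 rpbp in them against 3.2 to 12.2 in the others. Foxq1, a forkhead transcription factor gene, read 13.4 and 15.4 rpbp against 0.7 to 4.3. Mcm10, whose product acts in DNA replication, read 12.9 and 35.2 rpbp against 2.5 to 6.1.

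Of the listed cell cycle genes, Plk3, a stress-responsive polo-like kinase gene, read 89.3 rpbp in ZT16 replicate 2 and 11.4 in replicate 1 of that time point, and 37.5 and 29.0 at ZT12. E2f8, a repressor of the E2F family, read 35.1 rpbp in ZT16 replicate 2 and 13.0 in replicate 1. Both were chosen after their values were seen, and neither passed the rhythm criteria.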
